A study of Ovis aries with 32 samples.

Results

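Gene expression in 2 brain-labelled tissues, hypothalamus and pituitary, was set against expression in liver and tail fat of Tan sheep kept on the control diet. The comparison took 16 of the 32 RNA-seq libraries of the study, 8 from the brain-labelled tissues and 8 from liver and tail fat, with 4 libraries in each of the 4 tissues. They were chosen by their labels alone, as the libraries of sheep on the basal pellet with no added succinic acid (CON). The study itself compared this pellet with the same pellet holding succinic acid (SA) at 1% of dry matter, fed for 60 days after 10 days of adaptation. Its animals were male Tan sheep, a fat-tailed Chinese breed, that entered at 3 months of age with 12 sheep on each diet. Each tissue was sequenced from 4 sheep per diet, and the labels do not say whether equal numbers in different tissues mark the same sheep.

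Brain tissue is built of neurons, which signal by releasing transmitter from vesicles at synapses, of oligodendrocytes, which wrap axons in myelin, and of astrocytes, which clear transmitter and supply fuel. Liver makes plasma proteins, oxidises fatty acids and detoxifies, and fat stores triglyceride in lipid droplets. Many enzymes and structural proteins exist as families of related genes, in which a neural form stands beside a form used by other tissues.

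Both sets of brain-labelled libraries carried neuronal transcripts, but several defining transcripts of the labelled places were at or near 0. SNAP25, which fuses synaptic vesicles with the membrane, was at 842, 851, 678 and 553 TPM, a gene's share of a library's transcripts corrected for length, in the 4 hypothalamus libraries and 1220.0, 938, 1202 and 1259 TPM in the 4 pituitary libraries. The levels were 0, 0.04, 0.03 and 0 TPM in liver and 0.06, 0.2, 0.52 and 0.4 TPM in tail fat. All 8 brain-labelled libraries were thus far above all 8 others, with the pituitary libraries above the hypothalamus libraries. Of 14 markers of the anterior pituitary, 10 were found by name, and their sum was 234.3 to 276.1 TPM in the pituitary libraries, of which CHGA, a vesicle protein that neurons share, made 226 to 273 TPM. The sum was no lower in the hypothalamus libraries, at 245.9 to 376.5 TPM. In the pituitary libraries 3 of the 10 averaged 1 TPM or more. PRL, the prolactin gene, reached at most 0.17 TPM there, CGA and FSHB, which encode subunits of pituitary hormones, were listed at 0, and GHRHR reached 0.03 TPM. Of 12 markers of hypothalamic peptide neurons 11 were found by name, and they summed to 36.7 to 56.4 TPM in hypothalamus and 10.1 to 16.98 TPM in pituitary libraries, against 0.22 to 4.22 TPM in liver and 4.15 to 7.85 TPM in tail fat. NPY, a peptide that neurons outside the hypothalamus also make, was at 44.3, 27.2, 32.5 and 31.3 TPM of this in the hypothalamus libraries. There AVP, the vasopressin gene, reached at most 0.72 TPM, HCRT (orexin) at most 2.56 TPM and AGRP, a feeding peptide, at most 3.45 TPM, and SIM1, a hypothalamic transcription factor, was listed at 0. Of 6 tested, HCRT, AGRP, NPY and TRH were called brain, and 5 of the 6 reached the level needed for a test, 1 TPM in at least 4 libraries, only through brain. Under the stricter rule 2 of the 6 were called and after quantile normalization 1, both described below. HCRT lost its call after quantile normalization, with libraries weighted and without tail fat CON 2 and CON 4, at average differences of 0.53, 0.83 and 0.94. It reached the level needed for a test in only 12 of 16 fits without 1 library. The sum of 8 markers of striatal neurons was 2499 to 3963 TPM in the hypothalamus libraries and 94.6 to 210.0 TPM in the pituitary libraries. PPP1R1B, a phosphoprotein of dopamine-receiving neurons of the striatum, was at 1651, 1733, 1446 and 1154 TPM in the hypothalamus libraries and 63.4, 64.4, 59.99 and 46.5 TPM in the pituitary libraries, against at most 0.22 TPM in liver and 174, 337, 89.2 and 105 TPM in tail fat. Tail fat thus lay between both brain-labelled tissues for this gene. The tissues are therefore called brain-labelled, and no region is assigned to them.

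Liver and tail fat carried their own markers, with 2 tail fat libraries standing apart. The 13 hepatocyte markers found by name summed to 218 to 817 TPM in hypothalamus and 549 to 961 TPM in pituitary libraries, against 116700 to 126800 TPM in liver and 16.3 to 899 TPM in tail fat. Tail fat CON 4 held ALB, the serum albumin gene, at 473 TPM, against 1.54, 1.81 and 11.3 TPM in the other tail fat libraries, and it held AHSG at 74.5 TPM, against 0.16 to 0.22 TPM. The 12 adipocyte markers summed to 57.3 to 89.1 TPM in hypothalamus and 36.7 to 67.5 TPM in pituitary libraries, against 11520 to 76770 TPM in tail fat and 159 to 243 TPM in liver, where ADIPOQ (adiponectin) and LEP (leptin) were listed at 0. Tail fat CON 2 held the highest level of ADIPOQ, 9604 TPM against 1071 to 3295 TPM in the others, and of the muscle genes CKM, 37.2 TPM, and ACTA1, 38.1 TPM. It had the lowest mitochondrially encoded share of tail fat, 22.5% of TPM. Without both libraries 7344 genes were called brain and 702 peripheral, beside the counts given next. The markers' part in single results was not tested. The sequencing depth is unknown, because TPM keeps no record of it.

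To ask which genes set brain apart from the periphery, each gene was compared in the 4 pairs of a brain-labelled tissue with liver or tail fat. A gene was called only where all 4 differences had the same sign and an adjusted p under 0.05, with limma on log2(TPM + 1) and Benjamini-Hochberg adjustment. Single pairs passed more often. The hypothalamus libraries were higher than liver for 51.5% of genes and lower for 16.7%, and against tail fat for 53.2% and 14.3%. The pituitary libraries were higher than liver for 58.3% and lower for 14.8%, and against tail fat for 59.4% and 11.9%. For all 4 pairs together, of 15929 genes tested, 6192 (38.9%) were called higher in the brain-labelled tissues and 777 (4.88%) were called higher in liver and tail fat. With the further demand that the weakest of the 4 differences be at least 1 on the log2 scale, 4704 (29.5%) and 512 (3.21%) remained. Of the 6192 and 777 genes, 2523 and 291 reached 1 TPM in at least 4 of 8 libraries only on the side where they were higher. Of the 4704 and 512 genes, 2003 and 192 did. For these genes a difference was built into the selection, and they are part of the 38.9% and 4.88%. The difference averaged over the 4 pairs passed on its own for 9841 genes (61.8%) higher in brain and 2766 (17.4%) lower, so 3649 and 1989 of these did not meet the demand of agreement. The libraries of the sides did not overlap for 5298 genes (33.3%) higher in brain and 647 (4.06%) lower. Called brain genes had a median average difference of 2.00 and a median weakest difference of 1.49 on the log2 scale, and called peripheral genes of -2.13 and -1.26.

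The split between the directions depended on how libraries were scaled. The median difference over all genes was 0.85 on the log2 scale, brain above periphery, and differences below are to be read beside that shift. After quantile normalization, which gives every library the same distribution of values, the median was -0.10, and the calls were 3346 higher and 2909 lower in brain. Of the 6192 genes called brain without that scaling, 3307 were called brain with it and 4 were called in the opposite direction, and of the 777 peripheral genes 765 were called again. Counts after this scaling are given below where they differ by much. Counts of listed genes are to be read beside 38.9% of all genes called brain and 4.88% called peripheral, beside 21% and 18.3% after quantile normalization, and beside 43.6% and 4.6% with mitochondrial and ribosomal RNA removed.

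**Figure D1:**
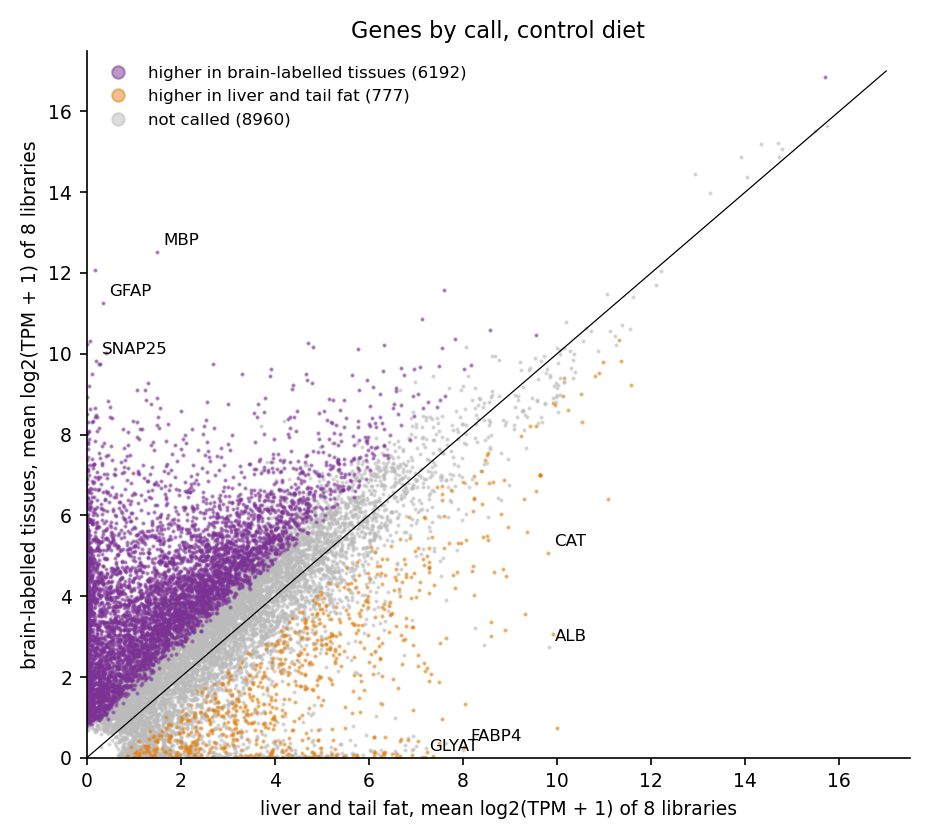
Each point is 1 of 15929 genes, placed by its mean log2(TPM + 1) over the 8 liver and tail fat libraries (x axis) and over the 8 brain-labelled libraries (y axis), with a line of equal levels. The 6192 genes called higher in brain-labelled tissues lie above the line and fill the left edge, where liver and tail fat are near 0, while the 777 called higher in liver and tail fat lie below it; ALB is not called because tail fat does not share its level.

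Neighbouring tissues were not equally alike on both sides. The hypothalamus libraries differed from the pituitary libraries for 713 genes (4.48%) higher and 1374 (8.63%) lower, with a median absolute difference of 0.31 on the log2 scale. Liver differed from tail fat for 3719 genes (23.3%) higher and 3308 (20.8%) lower, with a median absolute difference of 0.64. Among the genes called under the stricter rule, the brain-labelled tissues differed from each other for 1000 of 4704 brain genes, and liver differed from tail fat for 308 of 512 peripheral genes. The median within-tissue SD of log2(TPM + 1) was 0.21 in both brain-labelled tissues, 0.23 in liver and 0.59 in tail fat.

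Among the 10 genes with the largest weakest difference in favour of brain were MOBP, MBP, GFAP, MT3, UCHL1, PCP4, SNAP25, ALDOC and EEF1A2. They are genes of myelin (MOBP, MBP), of astrocytes (GFAP), and of neurons (UCHL1, a ubiquitin hydrolase, PCP4, a calmodulin regulator, and SNAP25), with MT3, the brain metallothionein, ALDOC, the brain aldolase, and EEF1A2, a translation factor of neurons and muscle. MBP, myelin basic protein, was at 2801, 2385, 11797 and 7810.3 TPM in the hypothalamus libraries and 7583, 10184, 8236 and 3738 TPM in the pituitary libraries. It was at 4.89, 4.15, 4.97 and 2.75 TPM in liver and 1.02, 0.47, 0.24 and 0.59 TPM in tail fat. The 8 brain-labelled values did not overlap the 8 others, but they differed among themselves, with CON 1 and CON 2 of the hypothalamus libraries low. The average difference was 11.03 ± 0.31, on the log2(TPM + 1) scale with its SE, as for all differences below, and the largest of the 4 adjusted p-values was 8.2e-13. GFAP, the astrocyte intermediate filament, was at 858, 1214, 2534 and 1072 TPM in hypothalamus and 5193, 6090.0, 4972 and 2998 TPM in pituitary libraries, and at most 0.15 TPM in liver and 1.39 TPM in tail fat. Its average difference was 10.92 ± 0.23, and its pituitary values lay above all its hypothalamus values.

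Genes of the synapse were higher in brain without exception among those tested. All 19 tested genes of synaptic vesicle release were called brain, and likewise 18 of 18 for glutamate receptors and their scaffold, 14 of 14 for GABA synthesis, transport and receptors, and 19 of 19 voltage-gated ion channels, where 38.9% of all genes tested were. Most of these genes could pass the filter of 1 TPM only through brain (14, 13, 10 and 16 of them, fewer than 4 of the 8 liver and tail fat libraries reaching 1 TPM), so a difference was built into their selection and the counts describe these lists without being evidence for them. Median differences were 5.90, 5.08, 5.65 and 4.01 on the log2 scale, against 0.85 over all genes. With quantile normalization 19, 16, 12 and 18 were called. In bulk tissue, more cells of a type and more RNA per cell cannot be told apart.

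Among the vesicle genes, SYP, which encodes synaptophysin, averaged 207 ± 20.1 TPM in hypothalamus and 510.0 ± 67.2 TPM in pituitary libraries (SD, n = 4 each), against 0.077 ± 0.094 TPM in liver and 0.13 ± 0.057 TPM in tail fat. SYT1, the calcium sensor of release, had an average difference of 8.01 ± 0.18 and CPLX2, which clamps the fusion machinery, of 8.30 ± 0.20. For receptors, GRIN1, the obligate NMDA receptor subunit, averaged 103 ± 17.7 TPM and 109 ± 29.3 TPM in hypothalamus and pituitary libraries, against 0.055 ± 0.039 TPM in liver and 1.10 ± 0.79 TPM in tail fat. GAD2, which makes GABA, averaged 111 ± 9.92 TPM and 137 ± 76.0 TPM and was listed at 0 in all 8 liver and tail fat libraries. SLC32A1, the vesicular GABA transporter, had 34.7, 52.5 and 70.2 TPM (lowest, median and highest of the 8 brain-labelled libraries), against at most 0.93 TPM in the others. By contrast SLC17A7, the vesicular glutamate transporter of cortical neurons, did not reach the filter, with at most 0.64 TPM in any brain-labelled library.

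NRGN, a calmodulin-binding protein of dendritic spines, showed how far the brain-labelled tissues can differ inside a brain call. It was at 1427, 1215, 1497 and 919 TPM in hypothalamus libraries and 207, 126, 157 and 205 TPM in pituitary libraries. In liver it was at 0.2, 0.45, 0.51 and 0.28 TPM and in tail fat at 2.91, 2.25, 4.34 and 3.82 TPM. The hypothalamus and pituitary values did not overlap, yet both lay above every liver and tail fat value, and the weakest of the 4 differences was 5.33 on the log2 scale. CAMK2A, the kinase of the postsynaptic density, had the same order, with 236 ± 76.8 TPM in hypothalamus and 59.3 ± 18.4 TPM in pituitary libraries, against 0.035 ± 0.026 TPM in liver and 0.13 ± 0.17 TPM in tail fat.

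**Figure D2:**
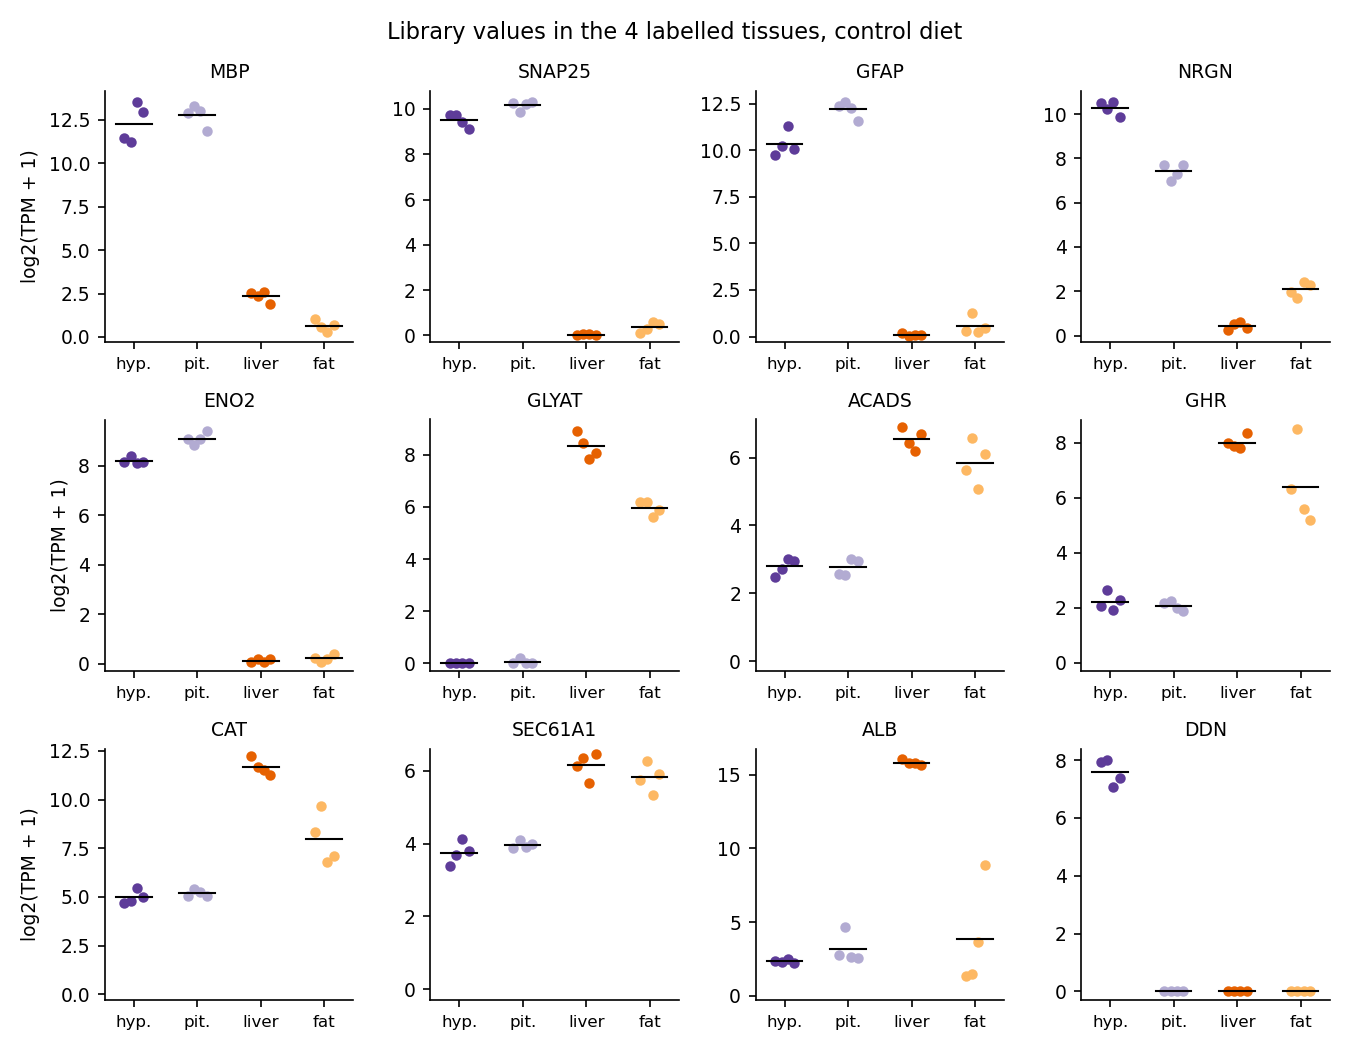
Points are the 4 control libraries of each tissue label and bars their means, on the log2(TPM + 1) scale with a separate y axis per gene, for hypothalamus (hyp.), pituitary (pit.), liver and tail fat (fat). MBP, SNAP25, GFAP, NRGN and ENO2 were called brain, GLYAT, ACADS, GHR, CAT and SEC61A1 were called peripheral, and ALB and DDN were not called because 1 tissue of a side did not share the level.

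All 17 tested genes of the axon and dendrite cytoskeleton were called brain, 17 of 18 neural adhesion genes, and 11 of 12 genes of neurotrophin receptors and brain growth factors, where 38.9% of all genes were. After quantile normalization 17, 17 and 10 were called brain, where 21% of all genes were. Of the tested genes, 10, 15 and 8 passed the filter only through brain. A difference was thus built into their selection, and the counts describe these lists without being evidence for them. NEFL, the light neurofilament, averaged 345 ± 66.3 TPM and 697 ± 52.6 TPM in hypothalamus and pituitary libraries, against 0 TPM in liver and 0.022 ± 0.029 TPM in tail fat. STMN2, which loosens microtubules in growth cones, had an average difference of 8.49 ± 0.13 and GAP43, a growth cone protein, of 8.05 ± 0.14. NTRK2, the receptor of brain-derived neurotrophic factor, averaged 124 ± 21.0 TPM and 141 ± 8.33 TPM in brain-labelled tissues, against 0.12 ± 0.048 TPM in liver and 9.97 ± 5.82 TPM in tail fat. The exceptions had 1 brain tissue low or 1 peripheral tissue high. CDH2, N-cadherin, was at 26.1 ± 6.43 and 35.9 ± 3.21 TPM in hypothalamus and pituitary libraries, against 0.29 ± 0.29 TPM in tail fat and a like level, 26.5 ± 6.19 TPM, in liver. This exception depended on the scaling: CDH2 was called brain with mitochondrial and ribosomal RNA removed, though not after quantile normalization. It was also called brain in the succinic acid libraries. BDNF, a ligand of NTRK2, was at 6.75 ± 1.14 TPM in pituitary and only 0.013 ± 0.019 TPM in hypothalamus libraries, against 0.013 ± 0.015 TPM in liver and 1.39 ± 1.41 TPM in tail fat.

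Glial genes were among the highest transcripts of the brain-labelled tissues. All 15 tested myelin and oligodendrocyte genes were called brain, against 38.9% of all genes, 12 of them passing the filter only through brain, and 14 were called after quantile normalization. MBP led the nuclear genes in both tissues, with 1.22% ± 0.81 of nuclear TPM in hypothalamus and 1.32% ± 0.48 in pituitary libraries (SD, n = 4). Of 13 astrocyte genes 11 were called brain, and 7 of the 13 passed the filter only through brain, so these counts too describe the lists and are no evidence for them. AQP4, the astrocyte water channel, averaged 169.6 ± 28.9 TPM and 141 ± 34.8 TPM, was listed at 0 in liver and averaged 0.0075 ± 0.0096 TPM in tail fat. SLC1A2, the main glutamate transporter of astrocytes, had 154, 183 and 304 TPM (lowest, median and highest) in the 8 brain-labelled libraries. In liver it was at 0.34, 21.6, 0.79 and 44.6 TPM, so 2 of the 4 liver libraries held over 20 TPM and the others under 1 TPM. The 2 astrocyte genes not called were high in liver as well: ALDH1L1, a folate enzyme, averaged 12.1 ± 2.96 and 22.9 ± 2.62 TPM in hypothalamus and pituitary libraries, against 235 ± 99.6 TPM in liver and 20.8 ± 11.7 TPM in tail fat. NDRG2 averaged 254 ± 39.2 and 485 ± 38.4 TPM, against 434 ± 124 TPM in liver and 55.6 ± 42.6 TPM in tail fat. Of 10 markers of macrophages and microglia 1 was called brain and 3 peripheral, where 38.9% and 4.88% of all genes were. Of the 10, 1 passed the filter only through brain and 3 only through liver and tail fat. For these a difference was built into the selection. The median difference of the 10 markers was -1.17, against 0.85 over all genes. They summed to 99.4 to 159 TPM in hypothalamus and 104 to 141 TPM in pituitary libraries, against 513 to 857 TPM in liver and 22.1 to 69.6 TPM in tail fat. CX3CR1, a receptor of microglia, was the 1 called brain, with 11.2 ± 1.81 and 9.68 ± 1.13 TPM in hypothalamus and pituitary libraries, against 0.52 ± 0.25 TPM in liver and 0.12 ± 0.047 TPM in tail fat, while the scavenger receptor MRC1 was called peripheral, with 0.16 ± 0.027 and 0.55 ± 0.076 TPM in hypothalamus and pituitary libraries, against 38.8 ± 7.39 TPM in liver and 5.73 ± 6.34 TPM in tail fat.

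Of 18 neural transcription factors 15 were tested and 12 were called brain, with 8 after quantile normalization, where 38.9% and 21% of all genes were. Of the 15, 11 passed the filter only through brain, so the count describes the list and is no evidence for it. SOX2, a factor of neural stem cells and glia, averaged 56.9 ± 25.2 and 68.0 ± 24.4 TPM in hypothalamus and pituitary libraries, against 0 TPM in liver and 0.045 ± 0.031 TPM in tail fat. Of 14 neuronal RNA-binding proteins 12 were called brain, and 11 of the 14 likewise passed the filter only through brain. ELAVL3, which stabilises neuronal mRNAs, averaged 51.9 ± 7.39 and 61.4 ± 8.52 TPM, was listed at 0 in liver and averaged 0.0075 ± 0.015 TPM in tail fat. NOVA1, a splicing factor, averaged 20.8 ± 2.18 and 62.4 ± 2.05 TPM in hypothalamus and pituitary libraries, against 0.13 ± 0.054 TPM in liver and 22.2 ± 8.73 TPM in tail fat, and was not called. The REST complex silences neural genes in other tissues, and 5 of the 8 tested genes of its corepressor set were called brain, against 38.9% of all genes. They were RCOR2, RCOR3, KDM1A, HDAC2 and EHMT2, of which KDM1A lost the call after quantile normalization. HDAC1, a deacetylase of the same set, averaged 19.0 ± 4.41 and 24.2 ± 1.12 TPM in hypothalamus and pituitary libraries, against 40.9 ± 3.52 TPM in liver and 22.3 ± 21.9 TPM in tail fat, and was not called.

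Of 18 glycolysis genes 9 were called brain and 1 peripheral, against 38.9% and 4.88% of all genes. Of the 18, 3 passed the filter only through brain and 1 only through liver and tail fat. Glycolysis splits glucose to pyruvate, and the brain calls included HK1 at its first step, PFKM and PFKP at its control step, and ENO2 and PKM near its end. ENO2, the neuronal enolase, was at 283, 334, 278 and 283 TPM in hypothalamus libraries and 540.4, 457, 533 and 675 TPM in pituitary libraries. It was at 0.04, 0.14, 0.04 and 0.14 TPM in liver and 0.16, 0.06, 0.14 and 0.31 TPM in tail fat. No liver or tail fat value came near a brain value, and the average difference was 8.48 ± 0.14 with a largest adjusted p of 1.44e-15. ENO2 passed the filter only through brain, so a difference was built into its selection and this p is no evidence for it. PKM, pyruvate kinase of brain and muscle, averaged 437 ± 30.7 and 712 ± 57.5 TPM in hypothalamus and pituitary libraries, against 15.3 ± 3.61 TPM in liver and 27.5 ± 13.0 TPM in tail fat. The 1 peripheral gene, ENO3, had an average difference of -1.59 ± 0.18, and its call was lost without pituitary CON 2 or CON 4 or liver CON 2 or CON 3, when the average was -1.54, -1.58, -1.57 and -1.57 and the largest adjusted p 0.0527 to 0.0771.

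For the tricarboxylic acid cycle, in which succinate is an intermediate, 4 of 19 genes were called brain (IDH2, IDH3A, SUCLA2 and MDH1) and 1 peripheral (SUCLG1, singled out after its values were seen), where 38.9% and 4.88% of all genes were. Quantile normalization gave 3 and 4, and removal of mitochondrial and ribosomal RNA 8 and 0. Succinate-CoA ligase, which makes succinate from succinyl-CoA, is built of SUCLG1 with either SUCLA2, the ADP-dependent subunit, or SUCLG2, the GDP-dependent subunit. SUCLA2 was at 58.8, 75.0, 62.9 and 60.7 TPM in hypothalamus and 94.4, 94.4, 84.7 and 83.6 TPM in pituitary libraries. It was at 7.97, 12.6, 13.6 and 15.9 TPM in liver and 7.43, 50.3, 3.92 and 4.87 TPM in tail fat. Its brain-labelled values lay above all others, with tail fat CON 2 nearest, and the average difference was 2.70 ± 0.36. SUCLG2 was at 21.4, 27.4, 27.0 and 29.0 TPM in hypothalamus and 31.7, 28.3, 27.4 and 25.6 TPM in pituitary libraries, against 364, 285, 271 and 306 TPM in liver and 35.2, 90.6, 15.4 and 15.0 TPM in tail fat. Liver stood alone above the others and tail fat overlapped the brain-labelled libraries, so SUCLG2 was not called. SUCLG1 averaged 95.1 ± 12.1 and 116 ± 12.7 TPM in hypothalamus and pituitary libraries, against 185 ± 22.5 TPM in liver and 201 ± 69.9 TPM in tail fat, with an average difference of -0.84 ± 0.18. Its call was lost without pituitary CON 3 (-0.80, largest adjusted p 0.0683), liver CON 3 (-0.81, 0.0645) or tail fat CON 1 (-0.78, 0.0554) and with mitochondrial RNA removed (-0.71, 0.106). The lowest tail fat value, in CON 3, lay within the range of the pituitary libraries.

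SDHA and SDHB, subunits of the enzyme that oxidises succinate, were not called, with average differences of 0.57 ± 0.35 and -0.07 ± 0.23. SUCNR1, the succinate receptor, was called peripheral at a low level, with at most 0.02 TPM in any brain-labelled library, against 0.59, 1.13, 1.72 and 1.22 TPM in liver and 0.89, 2.28, 0.4 and 0.38 TPM in tail fat. It passed the filter through exactly 4 libraries, liver CON 2, CON 3 and CON 4 and tail fat CON 2, and could not be tested when any 1 of them was left out. IDH3A, a subunit of the NAD-dependent isocitrate dehydrogenase, had the largest brain difference of the cycle, 3.78 ± 0.20, and all 8 brain-labelled values lay above all others. IDH2 lost its call after quantile normalization, at an average of 1.17 with a largest adjusted p of 0.991. The call was also lost without hypothalamus CON 2 or CON 3 or liver CON 1, CON 2 or CON 3. In these fits without 1 library the average stayed between 2.01 and 2.08, with a largest adjusted p of 0.0578 to 0.113. Of 24 nuclear genes of oxidative phosphorylation 4 were called brain, a smaller share than the 38.9% of all genes, and 10 with mitochondrial and ribosomal RNA removed. Of 12 tested mitochondrially encoded genes 1 was called brain, ATP8. The reading frame of ATP8 overlaps that of its neighbour, so their reads are hard to separate, and ATP8 lost the call after quantile normalization. NDUFS1, a complex I subunit, averaged 64.3 ± 9.68 and 84.8 ± 6.46 TPM in hypothalamus and pituitary libraries, against 27.3 ± 2.73 TPM in liver and 9.99 ± 10.7 TPM in tail fat.

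**Figure D3:**
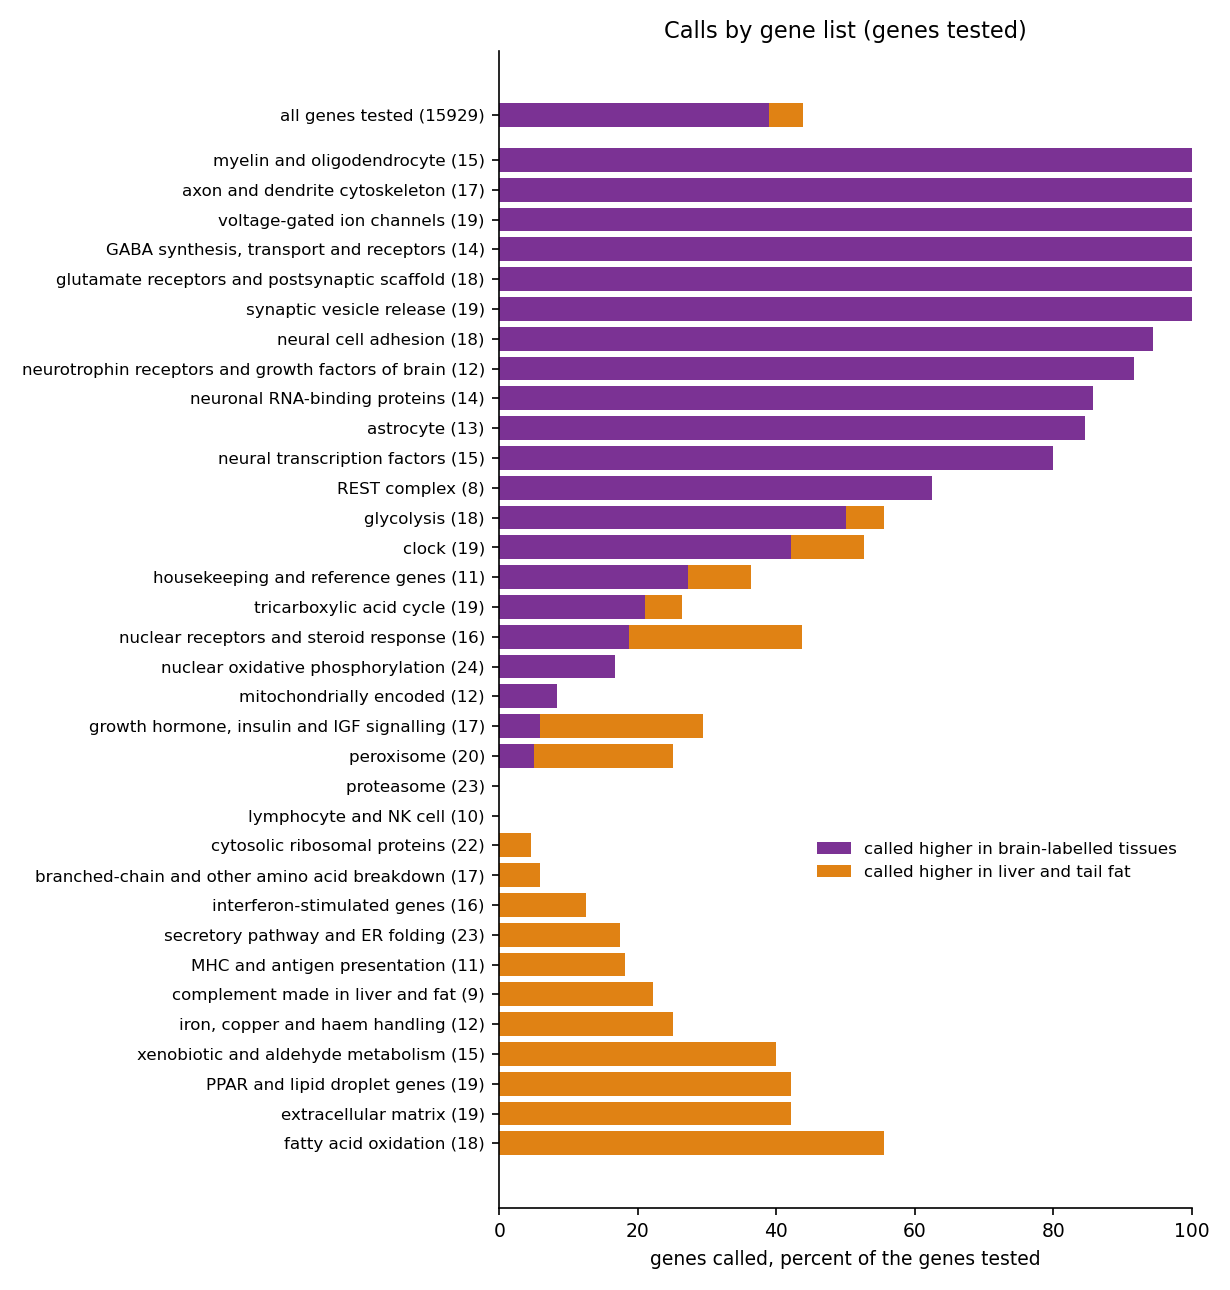
Bars give the percent of the tested genes of each list (number tested in brackets) that were called higher in brain-labelled tissues or in liver and tail fat, beside the same for all 15929 genes (38.9% and 4.88%). Several neural lists are called brain in every tested gene, fatty acid oxidation leads the peripheral calls with 10 of 18 genes, extracellular matrix and PPAR and lipid droplets follow with 8 of 19 each, and the proteasome and lymphocyte lists have none of either.

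The 10 named genes with the largest weakest difference in favour of the periphery were GLYAT, ACSM3, AGPAT2, TTC36, LCN2, KNG1, PCK2, CLDN4, ASGR1 and PFKFB1. GLYAT, which joins glycine to acyl-CoA, was listed at 0 in 7 of the 8 brain-labelled libraries and at 0.16 TPM in pituitary CON 2, against 478, 347, 229 and 269 TPM in liver and 71.9, 71.8, 47.7 and 57.1 TPM in tail fat. Liver lay above tail fat and both above all brain values, and the average difference was -7.11 ± 0.16. This gene passed the filter only through liver and tail fat. A difference was thus built into its selection, and the separation is no evidence for it. GLYAT, KNG1 (kininogen) and ASGR1 (the asialoglycoprotein receptor) are known as liver genes. In tail fat CON 1 and CON 2, where albumin was at 1.54 and 1.81 TPM, GLYAT was at 71.9 and 71.8 TPM, KNG1 at 30.6 and 83.9 TPM, and ASGR1 at 54.4 and 198 TPM. AGPAT2, which makes phosphatidic acid on the way to triglyceride, averaged 1.70 ± 0.62 and 1.44 ± 0.51 TPM in hypothalamus and pituitary libraries, against 93.9 ± 10.7 TPM in liver and 804 ± 315 TPM in tail fat. PCK2, the mitochondrial enzyme that makes phosphoenolpyruvate, had an average difference of -5.75 ± 0.20.

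Of 18 genes of fatty acid oxidation 10 were called peripheral and none brain, against 4.88% of all genes, and all 18 reached 1 TPM in at least 4 of 8 libraries on both sides. Their median difference was -1.94 on the log2 scale, and 13 were called after quantile normalization. ACADS, the dehydrogenase of short chains, was at 4.63, 5.50, 7.06 and 6.75 TPM in hypothalamus and 4.92, 4.78, 7.01 and 6.68 TPM in pituitary libraries. It was at 119, 84.8, 72.2 and 104 TPM in liver and 48.6, 94.8, 32.7 and 68.5 TPM in tail fat. The lowest peripheral value was above the highest brain value, and the average difference was -3.43 ± 0.21, with a largest adjusted p of 5.35e-08. ACADL (long chains), DECR1 (unsaturated chains) and ECI1 (double-bond shift) had average differences of -4.004 ± 0.24, -3.83 ± 0.26 and -3.33 ± 0.19. ACADM, the dehydrogenase of medium chains, was not called: it averaged 36.8 ± 5.28 and 54.3 ± 7.17 TPM in hypothalamus and pituitary libraries, against 298 ± 52.2 TPM in liver and 34.3 ± 36.1 TPM in tail fat.

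Of 20 peroxisome genes 4 were called peripheral (9 after quantile normalization) and 1 was called brain, where 4.88% of all genes (18.3% after quantile normalization) were called peripheral and 38.9% brain. CAT, catalase, was at 24.5, 26.8, 42.8 and 30.8 TPM in hypothalamus and 31.9, 41.5, 36.6 and 32.1 TPM in pituitary libraries. It was at 4840.2, 3298, 2879 and 2448 TPM in liver and 318, 801, 108 and 136 TPM in tail fat. Liver exceeded tail fat, tail fat exceeded both brain-labelled tissues, and the average difference was -4.73 ± 0.32. Of 19 genes of PPAR and lipid droplets 8 were called peripheral, 12 after quantile normalization, and none brain, and 6 passed the filter only through liver and tail fat. CIDEC, which enlarges lipid droplets, averaged 0.033 ± 0.039 and 0.11 ± 0.053 TPM in hypothalamus and pituitary libraries, against 8.18 ± 2.04 TPM in liver and 1078 ± 309 TPM in tail fat. ACSL1, which activates long-chain fatty acids, had an average difference of -3.46 ± 0.40. Of 17 genes of amino acid breakdown 1 was called peripheral and 7 after quantile normalization. PPARG, the master regulator of fat cells, averaged 0.34 ± 0.15 and 0.37 ± 0.17 TPM in hypothalamus and pituitary libraries, against 0.59 ± 0.26 TPM in liver and 218 ± 93.3 TPM in tail fat, and was not called.

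Of 17 genes of growth hormone, insulin and IGF signalling 4 were called peripheral and 1 brain, where 4.88% and 38.9% of all genes were. Quantile normalization gave 8 and 1, beside 18.3% and 21% of all genes. GHR, the growth hormone receptor, was at 3.16, 5.19, 2.75 and 3.83 TPM in hypothalamus and 3.48, 3.73, 2.96 and 2.72 TPM in pituitary libraries. It was at 252, 233, 223 and 322 TPM in liver and 78.8, 362, 46.7 and 35.9 TPM in tail fat. All 8 peripheral values lay above all brain values, tail fat spreading widely with CON 2 highest, and the average difference was -5.06 ± 0.34. IGFBP3 and IGFBP4, which bind insulin-like growth factors, had average differences of -4.67 ± 0.26 and -4.18 ± 0.21, while IGF1R, the receptor of the same hormones, was the gene of this list called brain, at 2.93 ± 0.17. Of 12 genes of iron, copper and haem handling 3 were called peripheral. SLC40A1, the iron exporter, was called peripheral with -3.82 ± 0.37, and HMOX1, which breaks down haem, with -2.92 ± 0.33. Of 15 genes of xenobiotic and aldehyde metabolism 6 were called peripheral (10 after quantile normalization) and none brain. ALDH1A1, which oxidises retinal, averaged 3.10 ± 2.02 and 17.4 ± 6.22 TPM in hypothalamus and pituitary libraries, against 597 ± 151 TPM in liver and 299 ± 214 TPM in tail fat. Of 16 nuclear receptor and steroid response genes 3 were called brain and 4 peripheral, where 38.9% and 4.88% of all genes were, and quantile normalization gave 1 and 5. NR3C2, the mineralocorticoid receptor, was called brain at 2.84 ± 0.18, and ESR1, an oestrogen receptor, peripheral at -3.04 ± 0.28.

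Of 19 extracellular matrix genes 8 were called peripheral and none brain, where 4.88% and 38.9% of all genes were. After quantile normalization 16 were called peripheral, where 18.3% of all genes were. COL3A1, a fibrillar collagen, had 2.10, 3.31 and 7.53 TPM (lowest, median and highest) in the 8 brain-labelled libraries and 33.2, 138 and 1120.2 TPM in the 8 others. DPT, a fibroblast matrix protein, was at most 0.05 TPM in any brain-labelled library, against 14.6 ± 5.75 TPM in liver and 61.6 ± 7.13 TPM in tail fat. It passed the filter only through liver and tail fat, so a difference was built into its selection. Of 9 complement genes 2 were called peripheral, of 11 genes of antigen presentation 2, and of 16 interferon-stimulated genes 2, and of 10 lymphocyte genes none, by limma, against 4.88% of all genes. Of the genes of these lists 3, 1, 2 and 6 passed the filter only through liver and tail fat. No gene of these 4 lists was called brain, and at an unadjusted p under 0.05 in all 4 pairs there were 0 brain genes in these lists and 0 peripheral lymphocyte genes. Quantile normalization gave 6, 6, 7 and 5 peripheral calls, where 18.3% of all genes were called so. With mitochondrial and ribosomal RNA removed the antigen list had 1 call in each direction. Several of these calls were lost when 1 library was left out. That of C2, a complement protease, at -4.77 ± 0.23, was lost without pituitary CON 1 (-4.74, largest adjusted p 0.0544) or CON 3 (-4.73, 0.0578) or tail fat CON 4 (-4.54, 0.0633). That of TAP1, a peptide transporter, at -0.83 ± 0.16, was lost without hypothalamus CON 1 (-0.76, 0.0526) or pituitary CON 2 (-0.78, 0.0521), and with mitochondrial and ribosomal RNA removed (-0.76, 0.56). Both interferon calls were unstable: DDX58, a sensor of viral RNA, lost its call in 11 and RSAD2, an antiviral enzyme, in 8 of 16 fits without 1 library, with average differences of -1.04 to -0.89 and -1.42 to -1.02 over the 16. For DDX58 these were the fits without hypothalamus CON 1, CON 3 or CON 4, pituitary CON 1, CON 3 or CON 4, liver CON 2 or CON 4, or tail fat CON 1, CON 3 or CON 4. For RSAD2 they were those without hypothalamus CON 1, CON 3 or CON 4, pituitary CON 2, CON 3 or CON 4, or tail fat CON 3 or CON 4. Both calls were also lost without the filter (largest adjusted p 0.0616 for DDX58 and 0.0643 for RSAD2) and with libraries weighted (0.0797 and 0.306). DDX58 further lost its call with the replicate number as a block (0.0561) and with a prior neither trended nor robust (0.0549). PSMB8, a subunit of the immunoproteasome, averaged 5.05 ± 0.73 and 6.09 ± 1.07 TPM in hypothalamus and pituitary libraries, against 26.3 ± 5.13 TPM in liver and 21.6 ± 2.07 TPM in tail fat. Of 23 secretory pathway genes 4 were called peripheral, and 10 after quantile normalization. SEC61A1, the channel through which proteins enter the endoplasmic reticulum, was at 9.46, 11.8, 16.6 and 12.8 TPM in hypothalamus and 13.6, 16.1, 13.9 and 14.8 TPM in pituitary libraries. It was at 69.4, 80.5, 49.95 and 86.8 TPM in liver and 52.6, 76.5, 39.2 and 59.2 TPM in tail fat. The sides did not overlap, and the average difference was -2.13 ± 0.18.

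In gene families the neural form was usually called brain. Across 35 families, each with a member known from neural tissue and a member known from elsewhere, 53 neural-side members were tested and 48 were called brain. Of the 53, 25 passed the filter only through brain. Of 48 tested members known from elsewhere, 9 were called peripheral and 9 were called brain, where 4.88% and 38.9% of all genes were. Of the 48, 7 passed the filter only through liver and tail fat and 2 only through brain. No neural-side member was called peripheral. Members were assigned to sides from general knowledge with earlier results of these data known, so the counts describe the choice as well as the tissues. In 7 families the calls were opposite, among them hexokinase, creatine kinase, fatty acid binding protein, long-chain acyl-CoA synthetase, polypyrimidine tract binding protein and vesicle SNARE. In hexokinase, creatine kinase and fatty acid binding protein every tested member known from elsewhere passed the filter only through liver and tail fat. A difference was thus built into the selection of those members, and their opposite calls are no evidence for it.

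Polypyrimidine tract binding proteins control splicing, and neurons are known to replace PTBP1 by PTBP2. PTBP2 was at 33.1, 34.8, 29.98 and 34.3 TPM in hypothalamus and 55.9, 31.2, 27.9 and 31.3 TPM in pituitary libraries, against 1.59, 2.46, 2.22 and 1.56 TPM in liver and 7.21, 14.7, 5.15 and 9.61 TPM in tail fat. PTBP1 was at 15.7, 16.1, 20.4 and 19.8 TPM and 20, 21.7, 20.2 and 20.6 TPM in the brain-labelled tissues, against 44.1, 40.7, 49.6 and 67.9 TPM in liver and 37.7, 65.0, 25.1 and 78.2 TPM in tail fat. Neither gene had overlapping sides, and the average differences were 2.73 ± 0.20 and -1.29 ± 0.21. CKB, the brain creatine kinase, was at 697, 682, 929 and 654 TPM and 757, 649.8, 690.3 and 784 TPM in hypothalamus and pituitary libraries, against 12.1, 15.6, 9.91 and 15.8 TPM in liver and 50.9, 148, 39.1 and 13.1 TPM in tail fat. CKMT2, a mitochondrial form of muscle, had an average difference of -2.64 ± 0.27. In transport vesicles, VAMP2 of the synapse had an average difference of 4.09 ± 0.25 and VAMP8, used in other secretory cells, of -2.65 ± 0.21.

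FABP3, a carrier of heart and brain, had 32.6, 45.0 and 73.2 TPM (lowest, median and highest) in brain-labelled libraries, against 0.09, 0.65 and 1.34 TPM in the others. FABP4, the adipocyte carrier, averaged 0.15 ± 0.2 and 0.28 ± 0.28 TPM in hypothalamus and pituitary libraries, against 2.91 ± 0.97 TPM in liver and 25149.8 ± 25325 TPM in tail fat. ACSL3 had an average difference of 4.38 ± 0.21, and ACSL5 of -3.58 ± 0.31. HK1 was called brain at 3.21 ± 0.24, but the call of HK3 at -1.03 ± 0.13 was lost without pituitary CON 3 (-0.997, largest adjusted p 0.0545) or tail fat CON 4 (-0.96, 0.0691).

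CPT1C, the brain form of carnitine palmitoyltransferase, averaged 27.8 ± 4.38 and 21.1 ± 4.22 TPM in hypothalamus and pituitary libraries, against 0.82 ± 0.33 TPM in liver and 0.75 ± 0.33 TPM in tail fat. CPT1A, its liver form, averaged 11.8 ± 3.47 and 16.5 ± 2.00 TPM in the brain-labelled tissues, against 106 ± 24.5 TPM in liver and 6.52 ± 4.10 TPM in tail fat, so the tail fat mean lay under both brain means. ACSS2, which makes acetyl-CoA from acetate, averaged 15.9 ± 1.29 and 20.1 ± 3.12 TPM in hypothalamus and pituitary libraries, against 11.9 ± 4.06 TPM in liver and 612 ± 649 TPM in tail fat, and was not called. Reads of close family members may be shared between genes by the authors' estimation, so levels of neighbours in a family are uncertain to that extent.

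**Figure D4:**
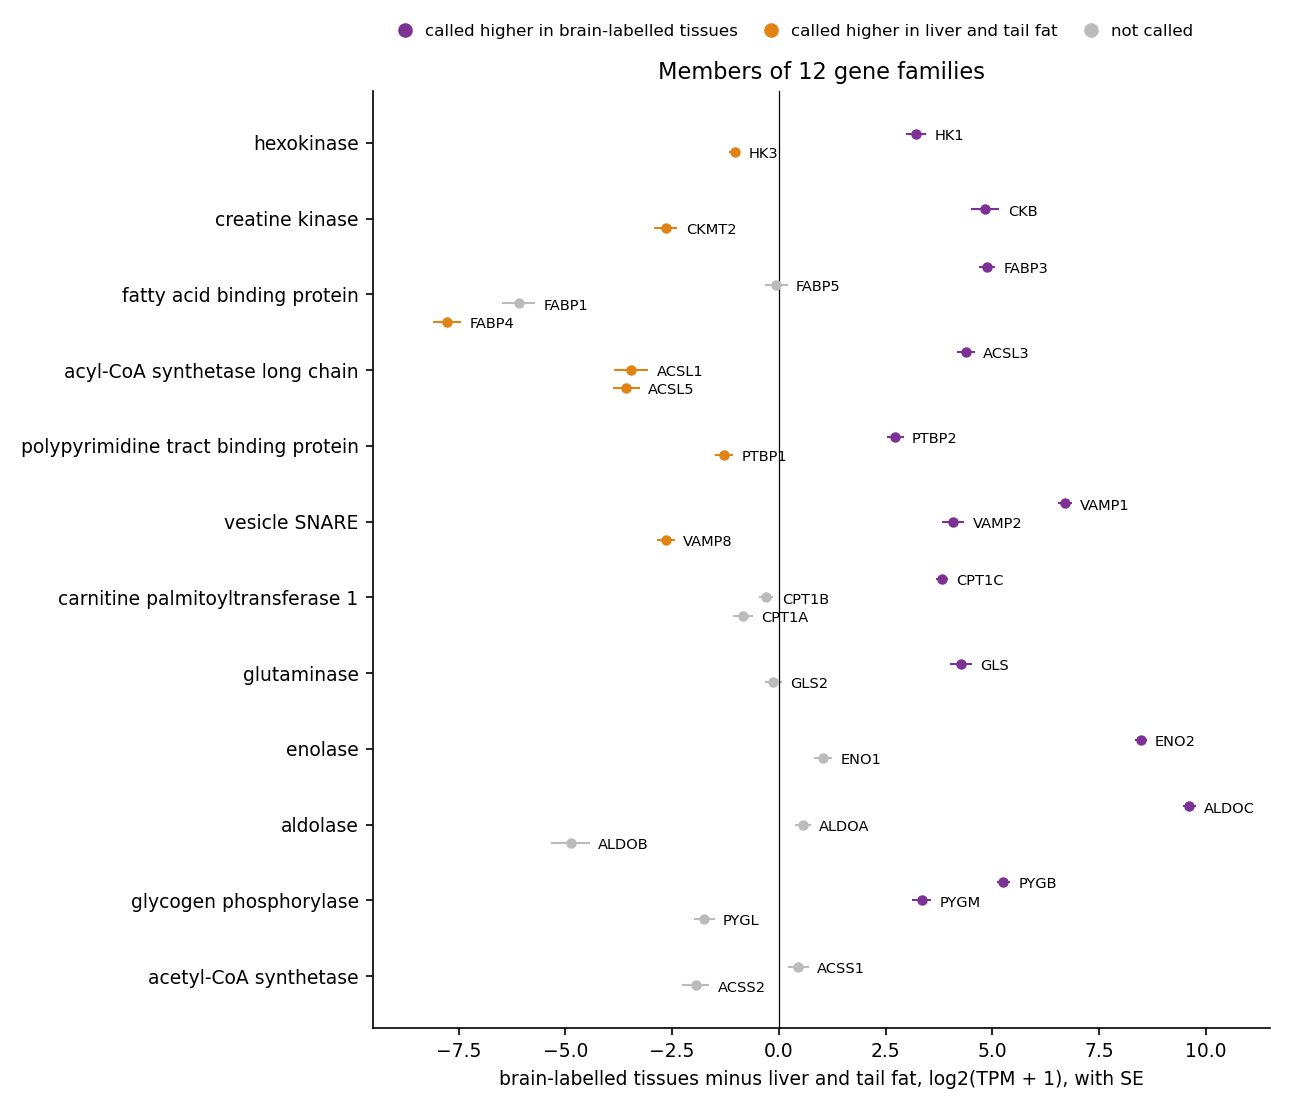
Points give the average difference of brain-labelled tissues minus liver and tail fat on the log2(TPM + 1) scale, with bars of 1 standard error, for the members of 12 of the 35 families. Opposite calls appear in the upper 6 families, where a brain-called member stands right of 0 and a peripheral-called member left of it.

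The demand that both tissues of a side agree left out secreted products of liver. The 5 named genes of largest average difference that were lower in brain but not called were FGG, ALB, CYP2E1, APOC3 and SERPINA1, which liver secretes or, for CYP2E1, uses to oxidise ethanol. ALB was at 4.08, 3.90, 4.55 and 3.64 TPM in hypothalamus and 5.78, 24.4, 5.27 and 4.87 TPM in pituitary libraries. It was at 67922, 57228, 57724 and 50873 TPM in liver and 1.54, 1.81, 11.3 and 473 TPM in tail fat. Tail fat overlapped the brain-labelled tissues, and only its CON 4 library rose above them. On the other side the 5 genes were PPP1R1B, CA3, DDN, NGEF and TPPP3. DDN, a dendritic protein, was at 243, 255, 135 and 164 TPM in hypothalamus libraries and was listed at 0 in all 12 libraries of the other tissues. CA3, a carbonic anhydrase, averaged 240.2 ± 135 and 510.4 ± 156 TPM in hypothalamus and pituitary libraries, against 242 ± 128 TPM in liver and 0.88 ± 1.43 TPM in tail fat, so liver shared the brain level. TPPP3, a tubulin-binding protein, averaged 153 ± 69.4 and 185 ± 37.8 TPM in hypothalamus and pituitary libraries, against 132 ± 36.8 TPM in tail fat and 0.65 ± 0.46 TPM in liver.

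None of 23 proteasome genes was called by limma in either direction, although the average difference was above 0 for 18 of them. At an unadjusted p under 0.05 in all 4 pairs 1 was higher in brain and 0 lower, and after quantile normalization 1 was called brain and 2 peripheral. With mitochondrial and ribosomal RNA removed 5 were called brain. Of 22 ribosomal protein genes 1 was called, RPLP0, peripheral at -1.23 ± 0.20. Its call was lost after quantile normalization, after removal of mitochondrial and ribosomal RNA, and with the replicate number as a block (-1.23, largest adjusted p 0.053). It was also lost without pituitary CON 1 (-1.23, 0.0598) or CON 4 (-1.20, 0.0744) or liver CON 1 (-1.19, 0.086) or CON 4 (-1.23, 0.0574). Of 11 genes often used as references, 3 were called brain and 1 peripheral, where 38.9% and 4.88% of all genes were. GAPDH was at 1186, 1375, 1099.8 and 1392 TPM in hypothalamus and 1782, 1614, 1932 and 2234 TPM in pituitary libraries. It was at 494, 283, 366 and 419 TPM in liver and 268, 582, 283 and 458 TPM in tail fat. The sides did not overlap, with the pituitary libraries highest, and the average difference was 2.01 ± 0.18. Of 19 clock genes 8 were called brain and 2 peripheral, where 38.9% and 4.88% of all genes were, and quantile normalization left 3 and 3. TEF and HLF, output factors of the clock, were called brain at 3.03 ± 0.25 and 2.63 ± 0.32.

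The libraries also differed in how expression was spread over genes. The brain-labelled libraries held 14253 ± 423 genes at 1 TPM or more, against 11620 ± 740 in liver and tail fat (SD, n = 8 each). The difference of 2633 gave p = 0.000155 in a two-sided exact permutation test, which is the lowest value possible with these group sizes, and 0.000311 after adjustment over 4 measures. The ranges did not overlap, with 13786 to 15178 genes in brain-labelled libraries and 10152 to 12753 in the others. Within nuclear genes, the 100 highest held 23.7% ± 1.55 of TPM in brain-labelled libraries and 48.3% ± 3.72 in liver and tail fat, a difference of -24.6 percentage points with the same p by that test. In liver ALB alone held 7.84% ± 0.89 of nuclear TPM, and in tail fat FABP4 held 4.45% ± 2.64 (SD, n = 4 each), against 1.22% for MBP in hypothalamus libraries. These leading genes were named after their values were seen. Over all genes, mitochondrial ones included, the 100 highest held 58.0% ± 3.76 in brain-labelled libraries and 66.7% ± 9.77 in liver and tail fat, with an exact permutation p of 0.0295 and an adjusted p of 0.0394. That difference of -8.66 points missed the threshold of 0.05 after adjustment over the 4 measures without hypothalamus CON 4, any pituitary library or tail fat CON 1, CON 3 or CON 4, when it was -8.76 to -6.24 with exact permutation p of 0.0385 to 0.0591 before adjustment. The 20 highest genes gave 0.0742 points with an exact permutation p of 0.988. TPM is a share, so a gene that takes more of a library leaves less to the others. The permutation treats the 8 libraries of a side as exchangeable, although they come from 2 tissues.

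Mitochondrially encoded transcripts made 46.0% ± 4.86 of TPM in the brain-labelled libraries and 37.2% ± 19.8 in liver and tail fat, and the exact permutation p was 0.237. The difference of 8.84 points was 13.6 points without tail fat CON 3, with an exact permutation p of 0.0379 that missed the threshold after adjustment over the 4 measures. Liver lay low, at 20.2% to 27.8%, and tail fat spread from 22.5% to 70.6%, so the periphery enclosed the brain-labelled range of 40.9% to 55.3%. With these transcripts and ribosomal RNA removed and the rest rescaled, 7436 genes were called brain and 784 peripheral.

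**Figure D5:**
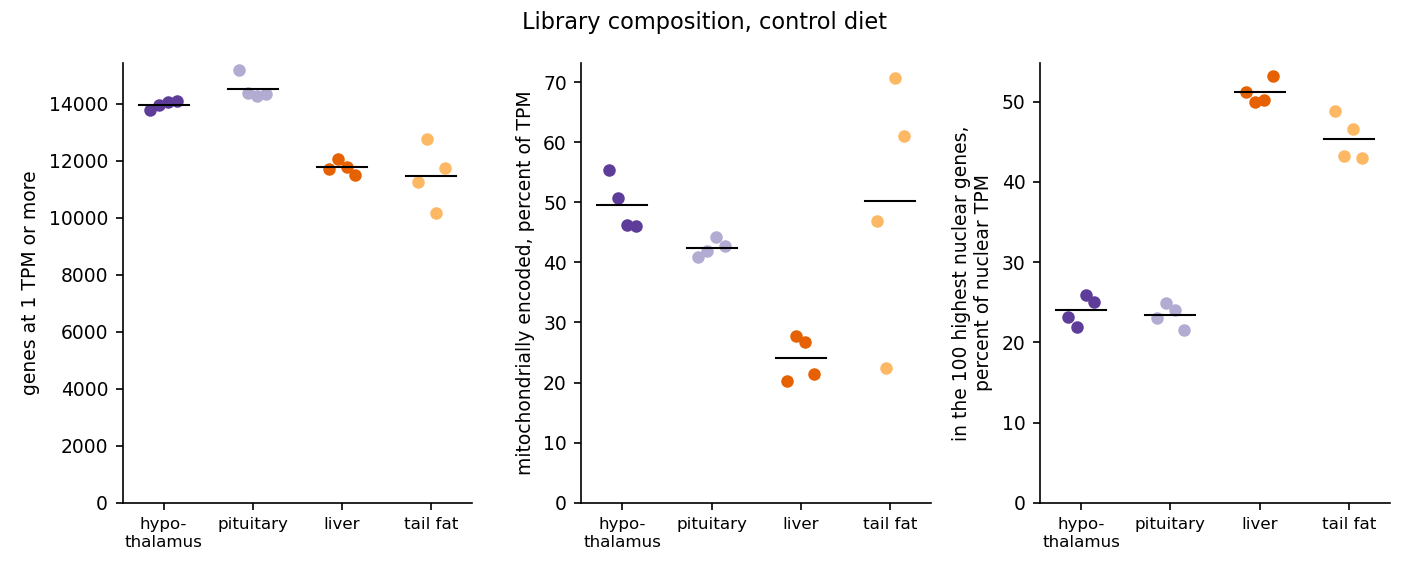
Points are the 4 control libraries of each tissue label and bars their means, for the number of genes at 1 TPM or more, the share of TPM that is mitochondrially encoded and the share of nuclear TPM in the 100 highest nuclear genes. The brain-labelled libraries lie above the others in the first panel and below them in the third, while in the second tail fat spans from 22.5% to 70.6%.

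The same fit was run on the 16 succinic acid libraries, which did not enter the calls above. There 7121 genes were called brain and 558 peripheral. The 5322 brain genes called in both diets were 85.9% of the control calls and 74.7% of the succinic acid calls. The 392 shared peripheral genes were 50.5% and 70.3%, and no gene had opposite calls. Peripheral genes of fatty acid oxidation with values given above (ACADS, ACADL, DECR1 and ECI1) were called in both, as were GLYAT, CAT and GHR. Of 99 called genes that are named here 12 were not called there. COL3A1, FABP4 and PTBP1 were among them, with average differences of -3.23, -7.36 and -0.69. So were MRC1, at -1.71, GAPDH, at 1.69, and PGK1, at 2.14. The others were DDX58, HK3, RPLP0, RSAD2, SUCLG1 and TAP1. Whether the tissue difference depended on diet was not tested.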

How the data were processed

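RNA was sequenced from hypothalamus-, pituitary-, liver- and tail fat-labelled tissue; per the labels' protocols, polyadenylated RNA was made into stranded libraries. Reads were trimmed with fastp, aligned with HISAT2 and quantified with RSEM, per the submitters' processing notes (versions, genome build, annotation and strand setting: not given in the sources used here). Values are deposited as TPM, made by the authors, in a table of 30722 rows, of which 13350 have no gene name and 64 names stand on more than 1 row. The 16 control library columns sum to 951010 to 986216 TPM, so values are shares and read depth is unknown. No counting interval can be given, and limits come from 4 libraries per tissue. The 8 deposited mean columns matched their libraries' means and stayed unused.

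Genes with at least 1 TPM in at least 4 of the 16 control libraries were tested with limma 3.58.1 (R 4.3.3) on log2(TPM + 1), with 4 tissue means, a trended robust prior and Benjamini-Hochberg adjustment over all genes within each contrast. Fold changes on this scale understate the change of low genes. Composition was tested by exact permutation with scipy 1.17.1 and the fits were tested on simulated data. The simulation gave all tissues the same spread for a gene, so it could not show an effect of the larger spread in tail fat. The p-values measure the spread between these libraries. Those of limma rest on a single estimate of spread per gene that the 4 tissues share. The median within-tissue SD was 0.59 in tail fat, 0.23 in liver and 0.21 in both brain-labelled tissues. The shared estimate can thus be too small for pairs with tail fat and too large for pairs with liver.

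The text names members of the gene families, the 10 genes of largest weakest difference per direction, up to 6 called and up to 3 other genes per list, the 5 genes per direction that missed only the agreement of tissues, markers, and SDHA, SDHB, SUCNR1 and SUCLG2. The members, lists and families were chosen with earlier results of these data known. Some genes these rules name are not reported here. Alternatives covered the pseudocount, the filter, scaling, weights, the prior, a replicate block, each library left out and the succinic acid libraries.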

Additional observations from a re-analysis of the deposited data

Results flagged for a closer look

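A library's value was compared with those of the other 3 libraries of its tissue. It was listed where its gap to the nearest, divided by the range of the 4, was above Dixon's 95% critical value. Gap and range were taken on the log2(TPM + 1) scale for genes and on the measure's own scale for library composition. Chance gives such a gap in about 1 in 20 groups, and it was found in 5 of 89 groups of printed values. SNAP25 was at 938 TPM in pituitary CON 2, below 1202 to 1259 TPM in the other pituitary libraries. ALB was at 24.4 TPM in the same library, above 4.87 to 5.78 TPM. ENO2 was at 334 TPM in hypothalamus CON 2, above 278 to 283 TPM. PTBP2 was at 55.9 TPM in pituitary CON 1, above 27.9 to 31.3 TPM. The same library held 15178 genes at 1 TPM or more, against 14254 to 14370 in the others.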

How the results depend on the processing

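The counts of brain and peripheral genes stayed within 1.5 times under every alternative tried but quantile normalization, which gave 3346 and 2909 calls and 2186 and 1589 under the stricter rule. The cause was not tested. With each library left out in turn the counts were 5730 to 7184 and 679 to 899, the highest brain count without tail fat CON 2 and the highest peripheral count without tail fat CON 3. Leaving out tail fat CON 2 and CON 4, chosen after seeing the data, gave 7344 and 702, and 7958 and 792 with mitochondrial and ribosomal RNA removed as well. Whether equal replicate numbers mark the same sheep could not be told, because different tissues of 1 sheep need not deviate together. At most 1 of 4 correlations of deviations was over 0.1 in any pair of tissues, the highest 0.118 for number 3 of liver and tail fat. A fit with the replicate number as a block called 6122 and 762 genes. Other alternatives gave 5037 to 7436 brain and 558 to 907 peripheral calls, the lowest peripheral count in the succinic acid libraries. Leaving out each library gave -10.4 to -6.24 percentage points for the share of TPM in the 100 highest genes, and the 20 highest genes gave 0.0742. Read depth is unknown, and tail fat had the largest spread between libraries.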
